A study of Mus musculus with 16 samples.

Results

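The comparison was between MPP3 and haematopoietic stem cells (HSC) of control mice: 4 libraries of MPP3 that were negative for Fc gamma receptors (Fcgr) and 4 libraries of HSC, 8 of the 16 libraries of the series. They were chosen by their titles. All 8 came from bone marrow of mice labelled wild type, which served as controls for mice carrying Jak2V617F, the activating JAK2 mutation of myeloproliferative neoplasms. The other 8 libraries are the same cell types from Jak2V617F mice and are used to show the same step in the mutants and to test its difference between genotypes. All 16 entered 1 fit, so the mutant libraries also bear on the filter on low counts and on the estimate of spread behind each control p-value. On the control libraries alone 1846 of 13356 genes were called, among them 82.5% of the genes called in the fit of all 16. The labels give a batch number, 1 to 4, and each batch holds 1 library of each cell type and genotype. They do not give strain, age, sex or the sort antibodies, nor say whether a library comes from 1 animal or a pool, so p-values measure the spread between libraries, which may be in part technical.

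HSC sit at the top of blood formation, divide rarely and can rebuild all blood lineages. MPP3 are multipotent progenitors one step below them that lean towards granulocytes and monocytes. The series concerns the unfolded protein response, the set of pathways through which PERK, IRE1 and ATF6 sense misfolded protein in the endoplasmic reticulum, so the response's genes are described alongside the genes of stem cell identity, lineage and cell division.

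The 8 libraries held 33108537 to 40326498 estimated counts in gene rows and 14852 to 15611 genes with a count. Levels are CPM, counts relative to library size scaled by TMM, listed in batch order 1, 2, 3 and 4. A gene was called when edgeR's quasi-likelihood test gave a Benjamini-Hochberg adjusted p under 0.05 over the 14179 genes tested. Of these, 946 (6.67%) were higher in MPP3 and 980 (6.91%) were lower, together 13.6%. The fall was deeper than the rise: the median log2 fold change was 0.72 among genes called higher and -1.27 among genes called lower, and 611 called genes were more than 2-fold lower against 325 more than 2-fold higher. In 1719 of the 1926 called genes the 4 MPP3 and the 4 HSC libraries did not overlap, a separation found in 19.5% of all genes tested. With both batch 1 libraries left out 1308 genes were called, and without any one library 1396 to 1608, the lowest without HSC replicate 2. In bulk RNA, fewer cells of a type and less RNA per cell cannot be told apart.

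**Figure D1:**
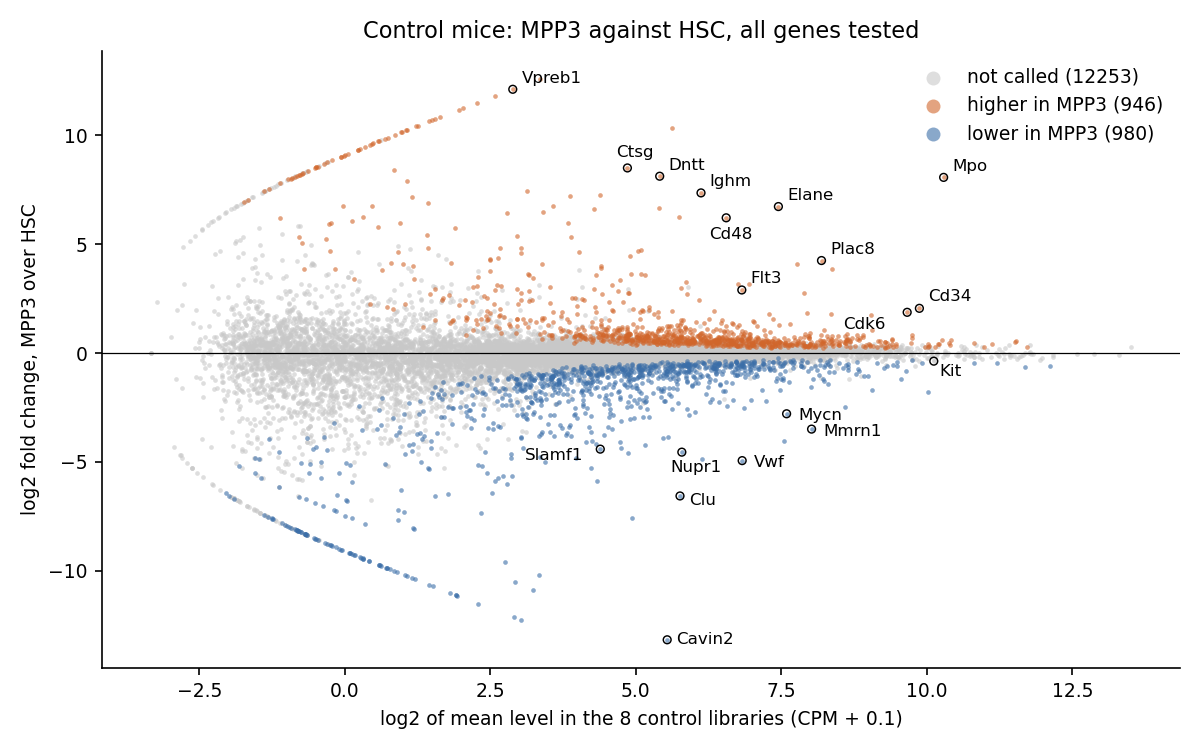
Log2 fold change of MPP3 over HSC (vertical) against the log2 of the mean level in the 8 control libraries (CPM + 0.1, horizontal) for all 14179 genes tested, coloured by call, with genes of the text circled. The curved edges at the left hold genes without a count in 1 of the groups, whose fitted fold change is no measure of size. Mpo is the most abundant of the circled genes with a large rise, and Cavin2 lies lowest.

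Slamf1, Cd48, Cd34 and Procr had the levels that the labels imply. Fc receptor transcripts and Flt3, listed here as a marker of the lymphoid-leaning progenitors MPP4, were also higher in MPP3, which the labels do not imply. The part of such progenitors in the MPP3 libraries was not tested. Slamf1 (CD150, on HSC; chr1:171767127-171801184, + strand) was 36.5, 30.6, 32.03 and 60.3 CPM in HSC and 2.72, 2.25, 1.54 and 1.005 CPM in MPP3. Cd48, absent from HSC in most sort schemes (chr1:171682009-171705258, + strand), was 3.13, 1.94, 1.74 and 3.20 CPM in HSC and 194, 216, 163 and 168 CPM in MPP3, a difference of 6.21 on the log2 scale (SE 0.24, edgeR adjusted p = 4.39e-11). For neither gene did the groups overlap, and both stood far outside the spread of their own group. Cd34, a progenitor sialomucin, rose from 350, 275, 413 and 417 CPM to 1493, 1208, 1633 and 1705 CPM. Flt3, the cytokine receptor of multipotent and lymphoid progenitors, rose from 20.4, 27.2, 29.04 and 30.5 CPM to 153, 204, 207 and 232 CPM (log2 fold change 2.89, SE 0.17, edgeR adjusted p = 1.13e-08). Procr (EPCR) and Ly6a (Sca-1), both stem cell surface proteins, had log2 fold changes of -1.52 and -1.0 and were called lower. Kit, the stem cell factor receptor, was 1185, 1183, 1266 and 1387 CPM in HSC and 885, 812, 1008 and 1173 CPM in MPP3, and missed the threshold (log2 fold change -0.37, SE 0.12, edgeR adjusted p = 0.0563), but passed it with batch as a block (edgeR adjusted p = 0.0111). Since such proteins are used for sorting, these values bear on the labels, which do not name the sort antibodies. Slamf1, Cd48, Cd34 and Procr went the way the labels imply. Flt3, in the same list of sort markers but listed for MPP4, was higher in MPP3, so the check is not clean.

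Fc receptor transcripts were low in both cell types but higher in the Fcgr-negative MPP3. Fcgr3, an activating Fc gamma receptor, was 0.388, 0, 0 and 0.300 CPM in HSC and 2.34, 2.46, 5.89 and 9.29 CPM in MPP3 (log2 fold change 4.84, SE 1.19, edgeR adjusted p = 0.0117). Fcgr2b, the inhibitory receptor, was 2.14, 8.16, 5.21 and 4.85 CPM in HSC and 12.1, 39.2, 8.06 and 15.5 CPM in MPP3, where replicate 2 was highest and replicate 3 overlapped the HSC range (log2 fold change 1.88, SE 0.47, edgeR adjusted p = 0.0121, not called without 1 of the 8 libraries). Il7r, the interleukin-7 receptor of lymphoid progenitors, had no count in HSC and 1.45, 4.95, 5.20 and 3.24 CPM in MPP3, at least 45.7-fold higher if each HSC library is set at a floor of 3 counts, a bound that covers counting error only because copies made by PCR cannot be told from molecules.

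**Figure D2:**
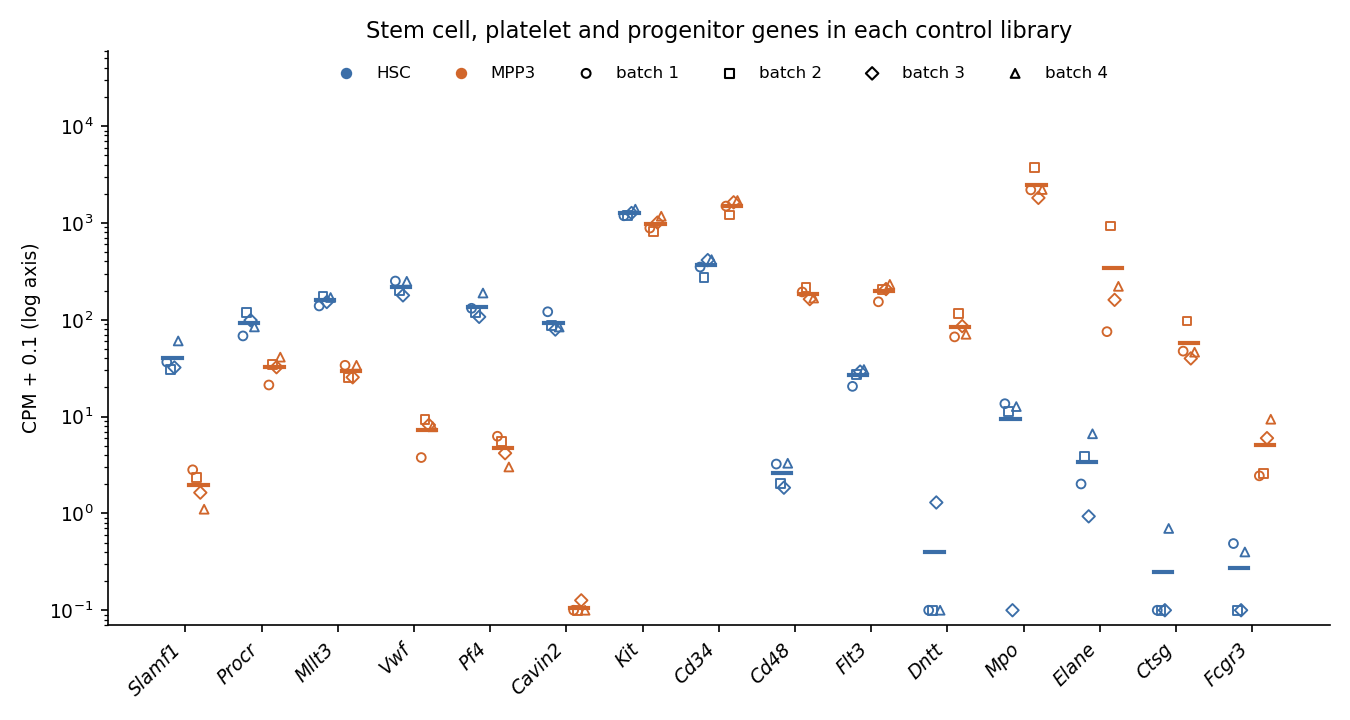
Level of 15 genes in each of the 8 control libraries (CPM + 0.1, log axis), HSC in blue and MPP3 in orange; symbols give the batch and bars the group mean (n = 4). HSC and MPP3 values are apart for all genes shown except that Kit values lie close together; 3 of 4 HSC libraries held Mpo at 11.3 to 13.5 CPM and the batch 3 library held none.

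Genes of stem cell identity were lower in MPP3. All 39 genes listed were tested, 35 were called lower and none higher, with a median log2 fold change of -1.88 against -0.01 over all genes. Mllt3, a chromatin reader that maintains HSC, was 139, 176, 152 and 170 CPM in HSC and 33.8, 25.1, 25.4 and 33.8 CPM in MPP3 (log2 fold change -2.43, SE 0.13, edgeR adjusted p = 5.47e-09). Every MPP3 library lay far below every HSC library, with little spread within either group. Mecom, a zinc finger factor needed for HSC, had a log2 fold change of -1.73. Fgd5 and Hoxb5, genes whose expression marks long-term HSC, had -2.51 and -2.87. Hlf, another stem cell factor, moved less, from 268, 271, 229 and 292 CPM to 210, 170, 182 and 205 CPM (log2 fold change -0.47, SE 0.11, edgeR adjusted p = 0.00956), and Meis1 had a log2 fold change of -0.58. The 4 members not called were Robo4, Hoxa9, Tcf15 and Alcam. Mycn, the MYC family member found in stem cells, was 329, 340, 446 and 232 CPM in HSC and 45.9, 44.8, 64.2 and 40.1 CPM in MPP3 (log2 fold change -2.79, SE 0.27, edgeR adjusted p = 2.22e-06), while Myc itself was 402, 255, 382 and 238 CPM and 523, 345, 439 and 268 CPM, with overlapping groups (log2 fold change 0.30, SE 0.20, edgeR adjusted p = 0.365).

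Imprinted growth-control genes, expressed from 1 parental allele and many of them restraints on growth, fell alongside. Of 20 listed genes, 4 had no row and 3 were under the filter, and 10 of the 13 tested were called lower, none higher. Ndn (necdin) was 54.3, 57.5, 53.9 and 58.6 CPM in HSC and 4.51, 0.991, 2.52 and 1.27 CPM in MPP3 (log2 fold change -4.59, SE 0.43, edgeR adjusted p = 1.70e-06). Cdkn1c (p57), the cyclin kinase inhibitor of quiescent HSC, was 6.63, 9.51, 4.996 and 6.67 CPM and 2.66, 0.390, 1.09 and 1.05 CPM (log2 fold change -2.42, SE 0.50, edgeR adjusted p = 0.00367). Neither gene's groups overlapped. Grb10, an adaptor that dampens insulin receptor signalling, and Igf2r, the receptor that clears IGF2, had log2 fold changes of -2.13 and -1.89. Impact and Sgce had -1.17 and -1.02. Gnas, at 111 ± 5.19 CPM in HSC and 110 ± 13.1 CPM in MPP3 (SD, n = 4), and Mest and Igf2, both near or under 1 CPM, were not called.

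The HOX list split by gene: of 29 listed, 21 were tested, 6 were lower (4 or 5 without any one library) and Pknox1, a cofactor, was higher (0.44). Calls made up 33.3% of the 21, against 13.6% of all genes tested. Of the 21, 4 had no count in 1 of the control groups and passed the filter only through other groups, which favours a large fold change. Hoxa10 (-1.20) and Hoxb5 fell, while the abundant Hoxa9 (58.96 ± 0.534 CPM in HSC and 48.1 ± 6.85 CPM in MPP3) and Hoxa7 (log2 fold change 0.10) were not called. Among genes of niche contact and guidance, 40 listed and 37 tested, 12 were lower and 7 higher. The lower ones included the integrin Itgb3 (-2.16), the tetraspanin Cd9 (-1.09), the semaphorin receptor Plxnc1 (-1.90) and the junction proteins Jam2 (-4.98) and Jam3 (-3.67). Among the higher ones Itgal, the alpha chain of the leucocyte integrin LFA-1, rose from 15.9, 11.2, 9.19 and 7.44 CPM to 130, 84.2, 90.4 and 116 CPM (log2 fold change 3.27, SE 0.22, edgeR adjusted p = 2.96e-08). Cxcr4, the receptor for the niche chemokine CXCL12, had a log2 fold change of 0.52 and was not called.

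In the list of detoxification and efflux genes 8 of 32 were lower, all 32 listed being tested. The aldehyde dehydrogenase Aldh1a1 was 113, 93.6, 94.1 and 124 CPM in HSC and 12.01, 11.9, 18.5 and 15.8 CPM in MPP3 (log2 fold change -2.87, SE 0.23, edgeR adjusted p = 2.29e-07). The glutathione transferase Gstt1 had -2.46, the sulphotransferase Sult1a1 -4.38 and the side-population transporter Abcg2 -0.68 on the same scale. The count was 4 or 5 without any of 6 libraries (HSC replicates 1 to 4 and MPP3 replicates 2 and 3), but Aldh1a1, Gstt1 and Sult1a1 were called in each of those fits. Antioxidant enzymes such as Sod1 (0.00), Cat (0.07) and Prdx1 (0.13) were not called.

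Megakaryocyte and platelet genes fell with the stem cell genes. Of 29 listed, 28 were tested, 19 were lower and Plek, a platelet kinase substrate also present in myeloid cells, was higher (0.53, a call lost when any of 5 libraries was left out). Vwf, von Willebrand factor, was 251, 200, 178 and 249 CPM in HSC and 3.68, 9.16, 8.09 and 7.75 CPM in MPP3 (log2 fold change -4.94, SE 0.35, edgeR adjusted p = 7.51e-08; chr6:125546774-125686679, + strand). Pf4, platelet factor 4, was 131, 118, 107 and 189 CPM and 6.17, 5.40, 4.09 and 2.92 CPM (log2 fold change -4.88, SE 0.34, edgeR adjusted p = 4.94e-08). For neither gene did the groups overlap, and all MPP3 libraries were in single digits. Mmrn1, a platelet granule protein, had -3.49, Gp9, part of the von Willebrand factor receptor, had -2.01, and Itga2b (CD41) had -1.28. Cavin2, a caveola protein abundant in platelets (chr1:51289126-51302960, + strand), was 121, 87.2, 79.1 and 84.05 CPM in HSC and gave a single count in the 4 MPP3 libraries together. That is a ratio of 13845 with a 95% counting interval of 2485 to 546897. Nfe2 and Fli1, factors of the lineage, fell less (-0.43 and -0.69, the former not called without any of 5 libraries), and Gata1 was 47.8, 31.04, 55.1 and 63.1 CPM in HSC and 45.6, 30.5, 31.9 and 50.2 CPM in MPP3, with overlapping groups (log2 fold change -0.32, SE 0.30, edgeR adjusted p = 0.568). The summed level of the list was 2654 to 3213 TPM (a scale that allows for transcript length) in HSC and 897 to 1245 TPM in MPP3.

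**Figure D3:**
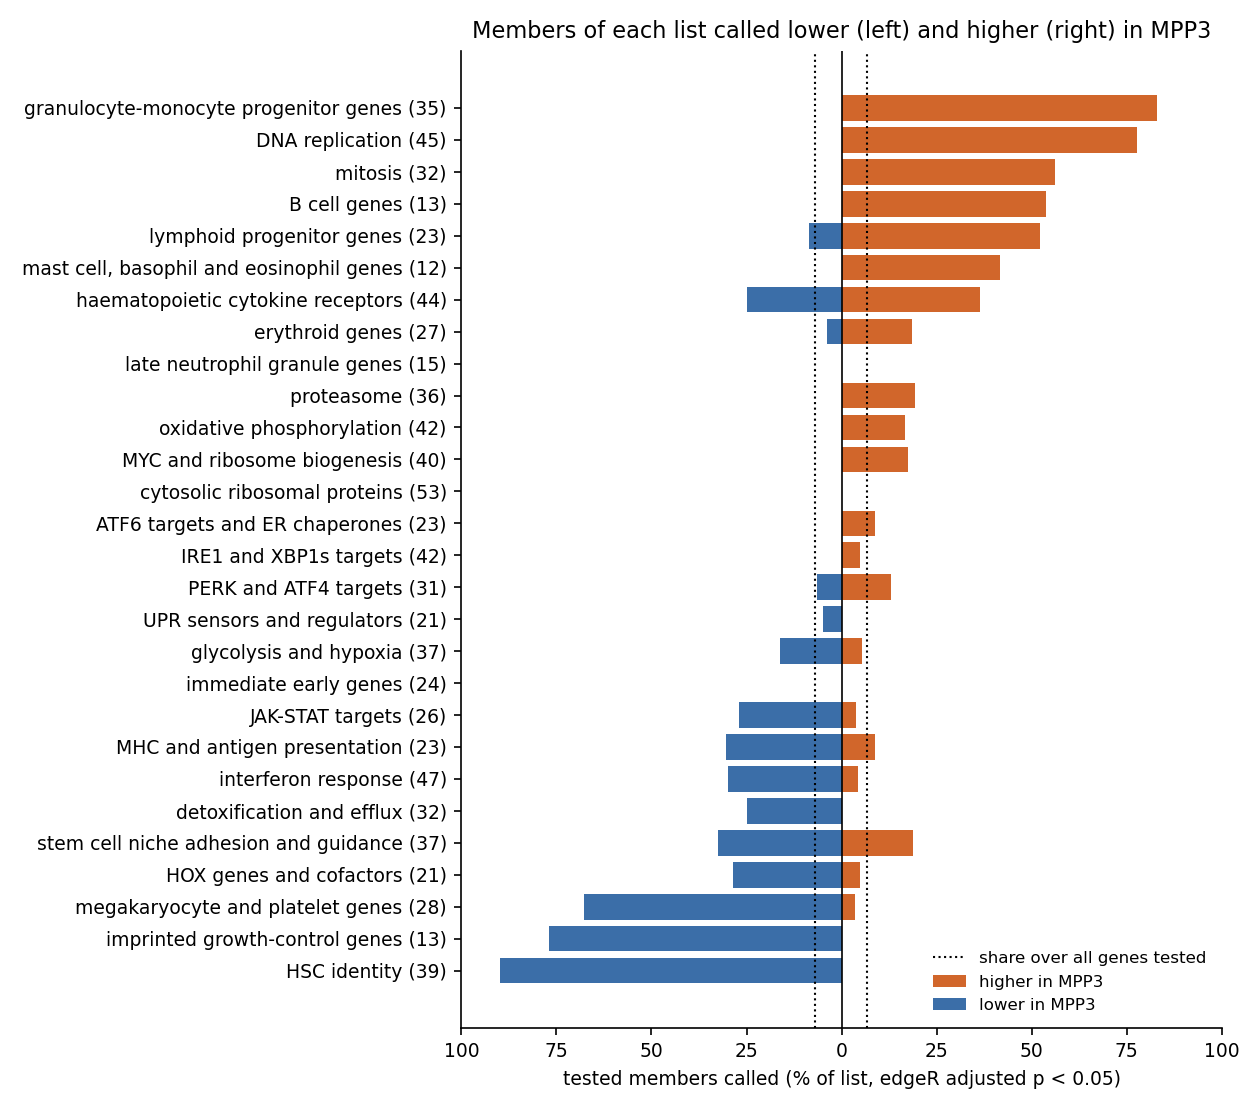
Share of the tested members of 28 gene lists called lower (left, blue) and higher (right, orange) in MPP3 by edgeR at an adjusted p under 0.05, with the number tested in brackets; dotted lines give the shares over all genes, 6.91% lower and 6.67% higher. Stem cell, imprinted and platelet lists extend to the left, and granulocyte-monocyte, DNA replication, mitosis and B cell lists to the right, while ribosomal protein, immediate early and late neutrophil lists have no called member.

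Genes of granulocyte-monocyte progenitors were higher in MPP3. All 35 listed were tested, 29 were higher and none lower, with a median log2 fold change of 3.13. Mpo, the myeloperoxidase of primary granules (chr11:87793581-87804413, + strand), was 13.5, 11.3, 0 and 12.6 CPM in HSC and 2195, 3746, 1814 and 2214 CPM in MPP3 (log2 fold change 8.06, SE 1.32, edgeR adjusted p = 0.00130). Elane, neutrophil elastase, was 1.91, 3.77, 0.833 and 6.54 CPM and 75.2, 928, 160 and 221 CPM (log2 fold change 6.72, SE 1.24, edgeR adjusted p = 0.00276), and Ctsg, cathepsin G, was 0, 0, 0 and 0.600 CPM and 47.3, 97.03, 39.8 and 46.2 CPM (log2 fold change 8.49, SE 0.76, edgeR adjusted p = 8.82e-07). No HSC library reached an MPP3 library in any of the 3 genes, and MPP3 replicate 2 was highest in each. Prtn3, proteinase 3, was already abundant in HSC, at 323, 340, 345 and 388 CPM, and 619, 604, 394 and 549 CPM in MPP3 (log2 fold change 0.63, SE 0.17, edgeR adjusted p = 0.0171). Its call was lost when either of 2 libraries was left out. Per length, Prtn3 stood at 692 TPM in HSC and 1065 TPM in MPP3, Mpo at 4.79 TPM in HSC and 1274 TPM in MPP3 and Elane at 5.06 TPM in HSC and 524 TPM in MPP3.

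Plac8, a small protein of myeloid progenitors, rose from 24.5, 18.2, 28.1 and 46.1 CPM to 589, 614, 502 and 514 CPM (log2 fold change 4.25, SE 0.24, edgeR adjusted p = 7.56e-09). Nkg7, a granule membrane protein, Cst7, an inhibitor of cathepsins, and Ms4a3, a marker of granulocyte-monocyte progenitors, had log2 fold changes of 2.77, 5.31 and 4.64. Trem3 had no count in HSC and 2.66, 12.7, 2.65 and 3.87 CPM in MPP3, at least 67.4-fold higher. The 6 members not called were Gfi1, Csf2ra, F13a1 (called with batch as a block, edgeR adjusted p = 0.0391), Cd93, Ctsc and Srgn. Srgn, the proteoglycan core of granules, was 694 ± 79.2 CPM in HSC and 771 ± 99.7 CPM in MPP3 (SD, n = 4). Genes of later neutrophils did not pass: of 18 listed, 15 were tested and edgeR called none, with Camp, Ltf and S100a8 at 1.63, 1.73 and 1.60 and spread widely within groups. With batch as a block 1 of them, Cebpe, was called, and its values were 0, 0.943, 1.41 and 0 CPM in HSC and 2.60, 9.64, 3.58 and 3.85 CPM in MPP3.

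The list of myeloid transcription factors, which also holds stem cell, erythroid and megakaryocyte factors, gave a smaller and mixed change. Of 26 listed, 25 were tested, 6 were higher and 4 lower, the lower ones being Mycn, Gata2, Id2 and Fli1. Irf8, a monocyte and dendritic cell factor, rose from 2.94, 4.58, 4.29 and 5.79 CPM to 29.6, 55.96, 19.9 and 31.5 CPM (log2 fold change 2.96, SE 0.38, edgeR adjusted p = 5.54e-05). Cebpa, required for granulocyte-monocyte fate, was 2.75, 0.0270, 0.390 and 0.0250 CPM in HSC and 14.2, 7.63, 5.94 and 7.48 CPM in MPP3, without overlap, but its call (edgeR adjusted p = 0.0391) was lost when any of 7 of the 8 libraries was left out. Spi1, which encodes PU.1, was 14.1, 11.3, 8.33 and 7.69 CPM and 18.4, 12.5, 9.21 and 11.9 CPM (log2 fold change 0.33, SE 0.29, edgeR adjusted p = 0.545), with groups that overlapped. Myb, Ikzf1 and Runx2 rose by less than 2-fold (0.69, 0.70 and 0.62), and Gata2, a stem and mast cell factor, fell (-1.19). Gfi1, Klf4, Runx1, Tal1, Zeb2, Etv6 and Erg were not called.

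Receptors for blood cytokines changed in both directions, 16 higher and 11 lower of 44 listed and tested (7 lower without HSC replicate 3). Calls made up 61.4% of the list, against 13.6% of all genes tested. Of the 44, 3 had no count in 1 of the control groups and passed the filter only through other groups, which favours a large fold change. Csf1r, the M-CSF receptor, was 2.77, 3.53, 2.26 and 1.32 CPM in HSC and 23.6, 18.04, 18.5 and 20.8 CPM in MPP3 (log2 fold change 3.03, SE 0.37, edgeR adjusted p = 3.01e-05). Csf3r, the G-CSF receptor, and Il1r1, the interleukin-1 receptor, had log2 fold changes of 1.18 and 1.98. Csf2rb, the chain shared by the GM-CSF, interleukin-3 and interleukin-5 receptors, rose (1.53) and its near copy Csf2rb2 fell (-1.24, not called without 5 of the libraries), so the split of reads between them is uncertain. Lower ones included Tek (-1.21), the angiopoietin receptor, Eng (-0.87), a TGF-beta co-receptor, and Tgfbr3 (-2.18).

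Several lymphoid genes were also higher in MPP3. Of 25 listed, 23 were tested, 12 were higher and 2 lower, beside shares of 6.67% higher and 6.91% lower over all genes tested. Of the 23, 4 had no count in 1 of the control groups. Those passed the filter only through other groups, which favours a large fold change. Dntt, the terminal transferase of immature lymphocytes, was 0, 0, 1.20 and 0 CPM in HSC and 66.5, 115, 85.8 and 70.7 CPM in MPP3 (log2 fold change 8.11, SE 0.99, edgeR adjusted p = 5.31e-05). Satb1, a chromatin organiser of lymphoid progenitors, rose from 3.05, 3.64, 5.07 and 6.09 CPM to 47.7, 64.9, 59.99 and 49.2 CPM (log2 fold change 3.63, SE 0.21, edgeR adjusted p = 7.56e-09). Both rises were seen in all 4 batches without overlap. Ly6d, a marker of B-lineage commitment, had no count in HSC and 3.10, 17.7, 12.6 and 4.36 CPM in MPP3, at least 117-fold higher. Mef2c and Bcl11a, factors active in lymphoid and other lineages, fell (-0.55 and -0.49, the latter not called without any of 4 libraries), and 4 members were lower with batch as a block.

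Several B cell transcripts were higher in MPP3. Of 16 listed, 13 were tested, 7 were higher and none lower. The 3 of them without a count in HSC passed the filter only through MPP3 or mutant libraries, which favours a positive fold change, so no median is given for the list. Vpreb1, a surrogate light chain, was 5.47, 18.6, 9.50 and 24.8 CPM in MPP3 against 0 in every HSC library, at least 180-fold higher, though Vpreb2 is a near copy. Ighm, the IgM heavy chain, was 0.0832, 1.21, 0.833 and 1.22 CPM in HSC and 54.9, 217, 113 and 168 CPM in MPP3 (log2 fold change 7.35, SE 0.95, edgeR adjusted p = 1.20e-04), and Cd79a, part of the B cell receptor, had 6.73. Outside the list, Igkc, the kappa light chain of later B cells, was 0, 0.296, 0 and 0 CPM in HSC and 0.550, 291, 77.4 and 25.1 CPM in MPP3, a wide spread that was lowest in replicate 1 (log2 fold change 10.34, SE 2.11, edgeR adjusted p = 0.00921, a call lost when 1 library was left out). Pax5, which fixes B cell identity, was under the filter on low counts, and Ms4a1 (CD20) was 0.272 ± 0.154 CPM in HSC and 0.754 ± 0.510 CPM in MPP3 (SD, n = 4) and not called. The summed level of the list was 69.3 to 102 TPM in HSC and 175 to 455 TPM in MPP3. The part of B-lineage cells in these rises, Igkc, Ighm and Dntt included, was not tested.

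T cell receptor constant genes were also higher. Trbc1 was 0 in HSC and 15.2, 22.9, 21.04 and 22.4 CPM in MPP3, at least 251-fold higher, and Tcrg-C1, of the gamma chain, was 0 and 12.3, 9.49, 11.9 and 13.3 CPM, at least 145-fold higher. Both were steady across the MPP3 libraries. Of 20 T and NK cell genes listed, 13 were tested and 2 called, both higher: Trbc2, a near copy of Trbc1 (5.42), and Lck, the kinase of T cell signalling (1.67). These calls are 15.4% of the members tested, near the 13.6% of all genes tested, and are no result about the list. Cd3e, part of the T cell receptor complex, and the T and NK cell factors Eomes and Tbx21 had no count in any control library, and Trac had none in MPP3. The 5 tested members without a count in HSC passed the filter only through other groups, and no median is given here either. The list's sum was 24.5 to 37.6 TPM in HSC and 49.6 to 78.2 TPM in MPP3.

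Mast cell and basophil genes gave 5 higher of 12 tested and 18 listed, 4 of the 12 having no count in HSC and passing the filter only through other groups. Cpa3, mast cell carboxypeptidase, was 5.71, 2.94, 8.93 and 4.45 CPM in HSC and 49.9, 69.3, 98.1 and 44.5 CPM in MPP3 (log2 fold change 3.57, SE 0.39, edgeR adjusted p = 7.03e-06), and Mcpt8, a basophil protease, was 0 and 2.46, 13.2, 6.95 and 7.92 CPM, at least 94.1-fold higher. The tryptases Tpsb2 and Tpsab1, and Cma1 and Prss34, had no count in either group. Of 20 dendritic cell and macrophage genes, 16 were tested, 3 were higher, including Itgax (CD11c; 0 in HSC and 3.30, 4.53, 2.65 and 0.637 CPM in MPP3), and 2 were lower, Clec9a and Cd74. Of the 3 higher, 1 was called without MPP3 replicate 2, HSC replicate 2 or HSC replicate 4, and of the 2 lower, 1 without any of 6 libraries, while Itgax and Clec9a were called in all 8 of these fits. Of 18 genes of stroma and endothelium, 12 were tested and 2 were higher: Pdgfrb, a growth factor receptor of mesenchymal cells, at 18.2, 29.1, 20.9 and 16.5 CPM in HSC and 114, 114, 124 and 105 CPM in MPP3 (log2 fold change 2.43, SE 0.20, edgeR adjusted p = 2.80e-07), and Runx2, also counted among the myeloid factors. These calls are 16.7% of the stroma and endothelium members tested, near the 13.6% of all genes tested, and are no result about that list. Pdgfra and Bglap, of mesenchymal cells and osteoblasts, averaged 0.5 and 3.5 counts a library in MPP3 and had none in HSC, and Col1a1 was 0.616 ± 0.567 CPM in HSC and 0.903 ± 0.893 CPM in MPP3.

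Some erythroid genes were called higher, while the summed level of the list was not higher in MPP3. That sum was 3733 to 5313 TPM in HSC and 2952 to 4518 TPM in MPP3, with overlapping groups. Calls in either direction made up 22.2% of the members tested, against 13.6% of all genes tested. Of 27 tested, 5 were called higher and Car2 lower (8 higher with batch as a block, and 2 to 4 without any one library, the lowest without MPP3 replicate 2 or 4 or HSC replicate 1 or 4). Car1, carbonic anhydrase 1, was 12.3, 27.9, 28.6 and 28.6 CPM in HSC and 253, 550, 395 and 455 CPM in MPP3 (log2 fold change 4.08, SE 1.18, edgeR adjusted p = 0.0369), without overlap, yet its call was lost when any one of the 8 libraries was left out. Mns1 and Ctse, which stayed called in all of these fits, had log2 fold changes of 1.16 and 1.42. Klf1, the erythroid master factor, was 5.38, 10.7, 9.84 and 22.1 CPM and 29.3, 48.8, 39.2 and 69.01 CPM, not called (log2 fold change 1.96, SE 0.70, edgeR adjusted p = 0.0745), and called with the block (edgeR adjusted p = 0.0156). Globin genes (Hba-a1, Hba-a2, Hbb-bs and Hbb-bt), which include near copies, lay between -0.46 and -0.15 and were not called.

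Genes of DNA replication were higher in MPP3 as a group, each by a modest amount. All 45 listed were tested, all 45 had a positive fold change and 35 were called higher, with a median log2 fold change of 0.60 and a highest of 1.26. Mcm6, part of the replicative helicase, was 694, 591, 721 and 641 CPM in HSC and 1048, 1041, 1130 and 988 CPM in MPP3 (log2 fold change 0.67, SE 0.09, edgeR adjusted p = 7.55e-05). Rrm2, the limiting subunit of ribonucleotide reductase, was 99.03, 93.8, 129 and 93.5 CPM and 184, 267, 284 and 263 CPM (log2 fold change 1.26, SE 0.18, edgeR adjusted p = 1.19e-04), and Cdc6, which loads the helicase, was 48.8, 65.4, 51.6 and 58.1 CPM and 104, 126, 161 and 132 CPM (log2 fold change 1.22, SE 0.17, edgeR adjusted p = 8.97e-05). The lowest MPP3 library lay above the highest HSC library in all 3 genes. Timeless, of the replication fork, Mcm10 and Tyms, thymidylate synthase, had log2 fold changes of 0.97, 1.26 and 0.81. The 10 not called were Cdc45, Gins3, Gins4, Pold2, Rfc1, Rfc3, Tk1, Orc1, Rpa1 and Chaf1b.

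The mitosis list moved the same way with weaker calls. All 32 were tested and positive, 18 were called higher, and the median log2 fold change was 0.57. Top2a, topoisomerase II alpha, was 292, 307, 284 and 263 CPM in HSC and 497, 534, 545 and 375 CPM in MPP3 (log2 fold change 0.77, SE 0.12, edgeR adjusted p = 3.11e-04). Cenpa, the centromeric histone, and Cdca8, of the chromosomal passenger complex, had 0.74 and 0.65. Mki67 was 85.7, 97.00, 91.3 and 94.2 CPM and 146, 226, 131 and 121 CPM (log2 fold change 0.76, SE 0.19, edgeR adjusted p = 0.0115), highest in MPP3 replicate 2. The count fell to 8 without MPP3 replicate 2, 10 without MPP3 replicate 3, 11 without HSC replicate 1 and 9 without both batch 1 libraries. Of the G1 regulators 4 of 20 were higher and 2 lower. Cdk6, the kinase whose level sets exit from HSC quiescence, was 265, 334, 368 and 426 CPM in HSC and 1013, 1029, 1274 and 1772 CPM in MPP3 (log2 fold change 1.87, SE 0.20, edgeR adjusted p = 4.84e-06), Cdk4 had 0.41 and Ccne2 0.98. The D-type cyclins Ccnd1 and Ccnd2 fell (-1.15 and -0.81). Txnip, an arrestin of quiescent cells, fell from 694, 1285, 1208 and 995 CPM to 371, 551, 524 and 412 CPM (log2 fold change -1.17, SE 0.27, edgeR adjusted p = 0.00808), and Cdkn1a (p21) was 17.03, 7.98, 9.37 and 3.82 CPM and 45.2, 13.4, 14.6 and 13.8 CPM, not called (log2 fold change 1.19, SE 0.45, edgeR adjusted p = 0.0918) but called with the block (edgeR adjusted p = 0.0227).

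Because replication, mitosis and granule genes each moved as a group, their promoters were searched for 6 motifs in RefSeq windows of 250 bases before to 50 after each start (GRCm38.p6), on both strands. The E2F sites TTTCCCGC or TTTGGCGC were in 26.2% of the 42 windows of DNA replication genes and 2.78% of the 13288 windows of genes tested. The cell cycle homology region TTTGAA, bound by the DREAM and MuvB complexes in mitotic genes, was in 75% of the 28 windows of mitosis genes and 12.3% of those of genes tested. The PU.1 site GAGGAAGT was in 24.2% of the 33 windows of granulocyte-monocyte genes and 3.19% of those of genes tested. Over all 32851 windows in the table the shares were 1.56%, 17.9% and 3.2%. The other motifs searched were CCAAT, in 85.7% of mitosis, 57.1% of DNA replication and 37.6% of tested windows (37.4% of all), TTGCNNAA of C/EBP factors, in 24.2% of granulocyte-monocyte and 8.77% of tested windows (10.8% of all), and AGATAA of GATA factors, in 20% of megakaryocyte and 6.89% of tested windows (11.2% of all). Stretches of 7 promoters that hold a match show where it lies, with the match in capitals and 5′ to 3′ on the gene's strand, in the order E2F, TTTGAA and PU.1. A match describes the letters, and its use by a factor was not measured.
Mcm6, chr1:128359768-128359855, - strand: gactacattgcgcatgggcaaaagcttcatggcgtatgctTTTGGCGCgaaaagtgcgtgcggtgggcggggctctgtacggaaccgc
Mcm5, chr8:75109320-75109407, + strand: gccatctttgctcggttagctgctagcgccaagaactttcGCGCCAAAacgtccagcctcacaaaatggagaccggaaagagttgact
Cdk1, chr10:69352939-69353023, - strand: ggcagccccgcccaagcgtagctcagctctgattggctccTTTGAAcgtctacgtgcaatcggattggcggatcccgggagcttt
Top2a, chr11:99024323-99024408, - strand: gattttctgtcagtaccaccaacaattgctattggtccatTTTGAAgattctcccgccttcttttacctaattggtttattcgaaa
Mki67, chr7:135716450-135716535, - strand: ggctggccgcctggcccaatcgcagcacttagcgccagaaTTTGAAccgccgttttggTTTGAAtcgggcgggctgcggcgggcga
Elane, chr10:79886187-79886246, + strand: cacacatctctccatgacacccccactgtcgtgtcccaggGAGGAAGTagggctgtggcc
Mpo, chr11:87793534-87793580, + strand: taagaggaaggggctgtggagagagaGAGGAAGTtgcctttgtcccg
Of these, the first 2 belong to helicase genes that rose by 0.67 and 0.82, the next 3 to mitotic genes that rose by 0.64, 0.77 and 0.76, and the last 2 to granule genes that rose by 6.72 and 8.06 on the log2 scale. In genes called higher the E2F share was 4.97% of windows, and in genes called lower 1.38%. The genes called higher include 35 of the DNA replication genes, so the 4.97% counts some of the same windows again.

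Calls in either direction made up 4.76% of the tested sensors and regulators of the unfolded protein response, against 13.6% of all genes tested. Such calls made up 19.4%, 4.76% and 8.70% of the PERK and ATF4, IRE1 and XBP1s, and ATF6 target lists. With so few members, these shares are no result about the pathway. Of 21 sensors and regulators, all tested, edgeR called 1, Xbp1, the factor spliced by IRE1, which was lower: 48.4, 43.8, 39.9 and 33.4 CPM in HSC and 32.9, 29.5, 20.1 and 19.9 CPM in MPP3 (log2 fold change -0.69, SE 0.21, edgeR adjusted p = 0.0373). Its call was lost when any of 5 libraries was left out, and without MPP3 replicate 1 there were 3 lower. The sensor genes Ern1 (IRE1), Eif2ak3 (PERK) and Atf6 had log2 fold changes of -0.57, 0.34 and -0.04, and Atf4, Ddit3 (CHOP) and the chaperone Hspa5 (BiP) had 0.03, -0.41 and 0.04, none called. Hspa5 was 956, 443, 607 and 588 CPM in HSC and 779, 548, 746 and 599 CPM in MPP3, highest in batch 1 in both cell types. Splicing of Xbp1 and phosphorylation of eIF2alpha are not measured by gene counts.

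Batch changed what could be seen of this pathway. Ppp1r15a (GADD34), the phosphatase subunit that reverses eIF2alpha phosphorylation, was 1361, 270, 275 and 362 CPM in HSC and 692, 85.5, 70.7 and 138 CPM in MPP3. Batch 1 was several times above the others in both cell types, and within each batch MPP3 lay below HSC. The gene was not called (log2 fold change -1.20, SE 0.77, edgeR adjusted p = 0.368) until batch was a block (edgeR adjusted p = 0.00645). Dnajb9 (ERdj4), an XBP1 target, was 48.5, 23.8, 21.6 and 21.2 CPM and 24.4, 15.5, 14.3 and 15.6 CPM, likewise below HSC in each batch, with an edgeR adjusted p = 0.0867 without and 0.0251 with the block. With the block 3 members were lower (Xbp1, Dnajb9 and Ppp1r15a) and 1 higher, Eif2s1, the eIF2alpha subunit (0.45, edgeR adjusted p = 0.0109). Over all 14179 genes tested the block called 2241 in place of 1926.

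Targets of the 3 arms differed gene by gene. Of 35 listed PERK and ATF4 targets, 31 were tested, 4 were higher and 2 lower. The higher ones were Phgdh (0.36) and Shmt2 (0.38) of serine and glycine synthesis, Mthfd2 (0.60) of one-carbon metabolism and Slc7a5 (0.76), an amino acid transporter. The count was 1 to 3 without any one library, 1 without MPP3 replicate 3, and Shmt2 lost its call in 7 of these 8 fits. The lower ones, Nupr1 and Trib3, are stress-induced regulators. Nupr1 was 94.4, 131, 117 and 81.6 CPM in HSC and 2.08, 5.82, 6.61 and 3.60 CPM in MPP3 (log2 fold change -4.55, SE 0.40, edgeR adjusted p = 7.61e-07), and Trib3, a pseudokinase, was 51.2, 81.9, 59.9 and 57.6 CPM and 11.2, 9.76, 11.1 and 10.4 CPM (log2 fold change -2.56, SE 0.30, edgeR adjusted p = 2.23e-05). Both were far apart between the groups in every batch. Asns, Chac1, Sesn2 and Ddit4 were not called. Of 42 IRE1 and XBP1s targets tested, 2 were higher, Sec24d (0.80) of the transport vesicle coat and Stt3b (0.36), not called without 7 of the libraries, of the oligosaccharyltransferase. Of 23 ATF6 targets and chaperones, 2 were higher in every fit that left out 1 library: Calr, calreticulin, at 303, 299, 321 and 353 CPM in HSC and 567, 513, 464 and 525 CPM in MPP3 (log2 fold change 0.70, SE 0.15, edgeR adjusted p = 0.00401), and Sdf2l1, which rose by 0.83.

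Immediate early genes, induced within minutes of a stimulus, varied widely between batches. Of 27 listed, 24 were tested and edgeR called none, although 22 had a negative fold change (median -0.69). Egr1 was 456, 66.5, 57.4 and 18.2 CPM in HSC and 114, 12.5, 5.60 and 4.88 CPM in MPP3 (log2 fold change -2.13, SE 1.27, edgeR adjusted p = 0.330), and Ier2 was 1513, 422, 347 and 257 CPM and 729, 207, 134 and 140 CPM (log2 fold change -1.07, SE 0.59, edgeR adjusted p = 0.282). Batch 1 was highest in both cell types, and MPP3 was below HSC in each of the 4 batches for Egr1, Ier2, Junb and Fos. With the block 8 were called lower, among them Egr1 (edgeR adjusted p = 0.00301), Ier2 (0.0446), Junb (0.0265) and Fos (0.0150). Over all 14179 genes tested the block gave 1110 lower in place of 980. Without MPP3 replicate 1 there were 6. What sets batch 1 apart was not tested.

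**Figure D4:**
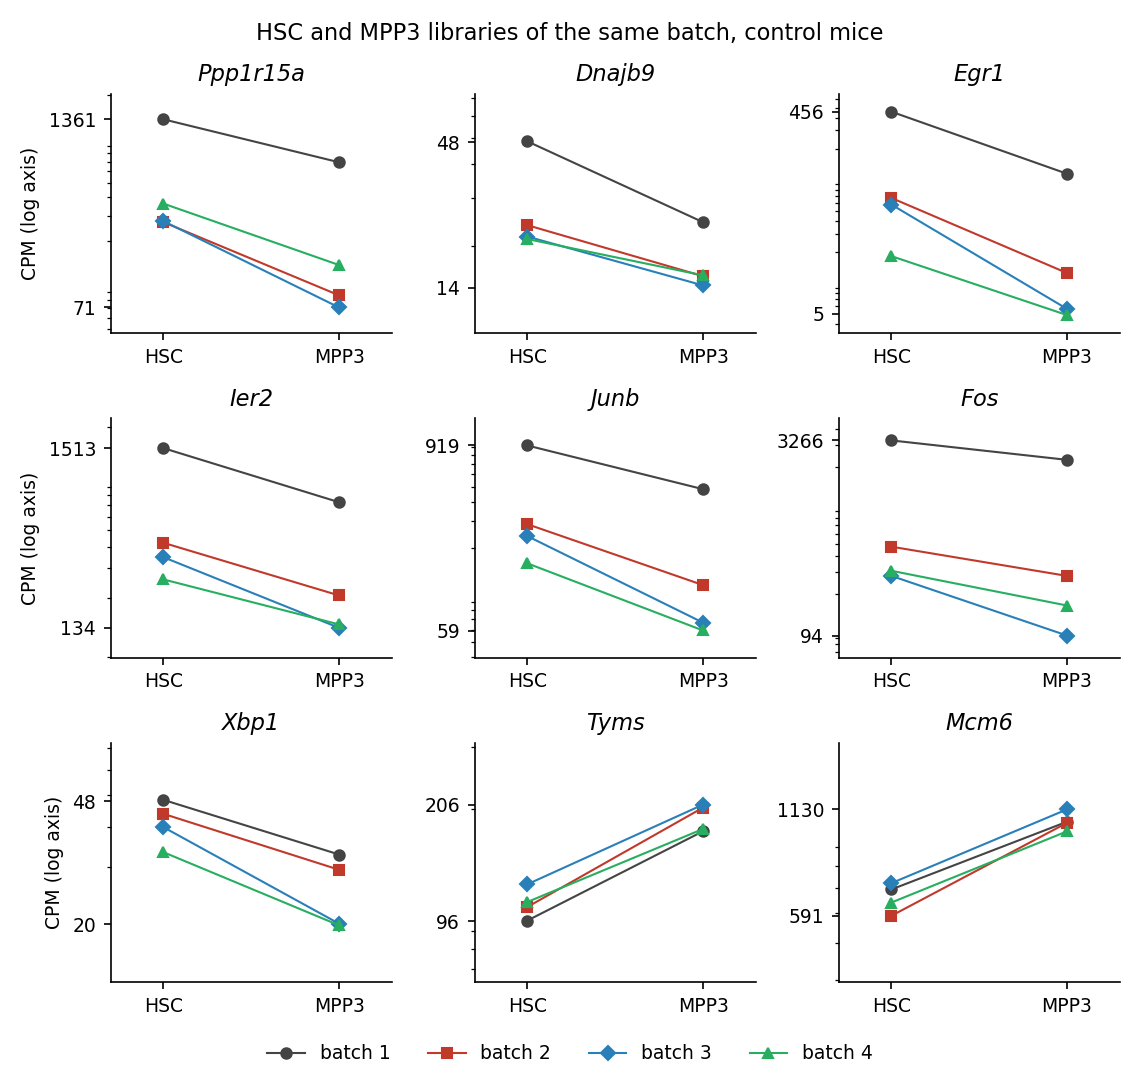
Level (CPM, log axis, a separate range in each panel) in the HSC and MPP3 library of each batch for 7 stress genes and, for comparison, Tyms and Mcm6; lines join libraries of the same batch. Batch 1 lies above the other batches for the stress genes from Ppp1r15a to Fos, and the lines fall from HSC to MPP3 in each batch; those of Tyms and Mcm6 rise.

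Among JAK-STAT targets, interferon response genes and antigen presentation genes more were called lower than higher. Of 27 JAK-STAT targets listed, 26 were tested, 7 were lower and 1 higher, a call lost when any of 5 libraries was left out. Socs2 and Cish, feedback inhibitors induced by STAT5, were 34.5, 39.3, 34.1 and 24.6 and 164, 186, 149 and 70.1 CPM in HSC and 4.86, 1.83, 4.33 and 1.72 and 34.9, 36.3, 23.6 and 24.7 CPM in MPP3 (log2 fold change -3.38, SE 0.45, edgeR adjusted p = 6.76e-05 for Socs2 and -2.25, SE 0.29, adjusted p = 6.31e-05 for Cish). No MPP3 library reached the lowest HSC library. Bcl2l1, the survival gene that encodes BCL-XL, had -0.80, and Jak2 itself was 14.9, 20.8, 22.02 and 29.3 CPM and 18.5, 27.9, 21.4 and 30.8 CPM, not called (log2 fold change 0.18, SE 0.23, edgeR adjusted p = 0.692). Of 47 interferon response genes, all tested, 14 were lower and 2 higher (median -0.31). The number higher was 0 or 1 when any of 7 libraries was left out (0 without MPP3 replicate 4 or HSC replicate 1, 2 or 3), and with the block 1 was higher, the call of Ifi204 being lost (edgeR adjusted p = 0.0527). Ifitm3, an antiviral membrane protein, was 626, 675, 702 and 606 CPM in HSC and 360, 285, 300 and 310 CPM in MPP3 (log2 fold change -1.05, SE 0.10, edgeR adjusted p = 2.05e-06). The neighbouring Ifitm1 had -1.05, Iigp1, an inducible GTPase, -1.72, and Ifit1 -1.08. Gbp4 and Gbp8, guanylate binding proteins whose loci overlap, had -3.02 and -3.23, and reads may be split between them. Isg15, Stat2, Irf7 and Oasl2 were not called. Of 23 genes of antigen presentation 7 were lower and 2 higher, a count of 13 and 4 with the block, and 4 lower without MPP3 replicate 4 or HSC replicate 3. Over all 14179 genes tested the block gave 1110 lower in place of 980 and 1131 higher in place of 946. The number higher was 0 or 1 when any of 7 libraries was left out (0 without MPP3 replicate 1 or HSC replicate 2). H2-Aa, a class II chain, was 57.4, 203, 239 and 170 CPM in HSC and 18.2, 50.98, 50.01 and 30.2 CPM in MPP3 (log2 fold change -2.16, SE 0.48, edgeR adjusted p = 0.00695), lowest in batch 1 in both, and Cd74, the invariant chain, had -2.50, a call lost when any of 6 libraries was left out. The summed level of the dendritic cell and macrophage list, of which Cd74 is a part, was 189 to 998 TPM in HSC and 97.4 to 222 TPM in MPP3, and the part of such cells in the class II result was not tested.

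Housekeeping pathways changed by small amounts. Of 53 cytosolic ribosomal protein genes tested (54 listed), edgeR called none, and log2 fold changes lay between -0.28 for Rps14 and 0.28 for Rpl27. With batch as a block 1, Rpl35, was called higher. Rps19, of the small subunit, was 3651, 3777, 3851 and 3403 CPM in HSC and 3573, 3649, 3597 and 3449 CPM in MPP3. Of 40 genes of MYC response and ribosome biogenesis 7 were higher, from 0.34 for Fbl to 0.46 for Gnl3, of 42 of oxidative phosphorylation 7, of 36 of the proteasome 7, of 28 cytosolic heat shock genes tested 5, and of 32 of mitochondrial expression 6. The first 3 of these counts are 17.5%, 16.7% and 19.4% of their lists, against 6.67% of all genes tested. Fold changes were positive for 36 of 40, 40 of 42, 35 of 36, 21 of 28 and 26 of 32 members, with medians of 0.27, 0.18, 0.19, 0.27 and 0.22. Leaving out any one library gave 0 to 7 (0 without HSC replicate 2), 3 to 8, 1 to 7 (1 without MPP3 replicate 1), 0 to 3 (0 without MPP3 replicate 3) and 3 to 6 in turn, while the block gave 11 for oxidative phosphorylation and 8 for heat shock. Members called in each of the 8 fits that left out 1 library were Ndufa4 (0.86), a subunit at respiratory complex IV, and Cycs (0.84), cytochrome c, with Tsfm (0.58), Mrpl37 (0.70) and Mrpl19 (0.39; edgeR adjusted p = 0.0752 without both batch 1 libraries) of mitochondrial translation. In glycolysis and hypoxia 6 of 37 were lower and 2 higher: Ldhb fell (-1.14), as did the glycogen phosphorylase Pygm (-2.93) and the glucose transporter Slc2a3 (-1.13), and the hexokinase Hk3 of myeloid cells rose (1.78). Among chromatin modifiers 8 of 33 were higher (4 without HSC replicate 2) and 5 lower. Ezh2 rose (0.84) and its paralogue Ezh1 fell (-0.71).

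The genes with the largest changes included several outside these lists. Matn4, a matrix protein of HSC, was 13.01, 16.4, 17.4 and 17.5 CPM in HSC and 0 in every MPP3 library, at least 195-fold lower, and Sfrp1, a secreted Wnt inhibitor, was 17.7, 20.9, 6.22 and 14.7 CPM and 0, at least 180-fold lower. Clu, an extracellular chaperone, fell from 124, 111, 96.9 and 96.5 CPM to 0.984, 1.92, 0.849 and 0.809 CPM (log2 fold change -6.56, SE 0.62, edgeR adjusted p = 1.83e-06). Runx1t1, a corepressor, and Amotl2, of cell junctions, gave 1 count each in the 4 MPP3 libraries, ratios of 2786 (95% counting interval 500 to 110098) and 2233 (400 to 88219). Evc, of the primary cilium, gave 2 counts, a ratio of 1511 (418 to 12486). Nbea, a large scaffold protein, had a log2 fold change of -6.42. On the other side Atp8b4, a lipid flippase, rose from 0.832, 0.270, 0 and 0 CPM to 22.3, 64.5, 27.5 and 51.9 CPM (log2 fold change 7.26, SE 0.94, edgeR adjusted p = 6.78e-05).

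The same step was then read in the Jak2V617F libraries, which share batches and the fitted spread with the control step, but no library. There edgeR called 1186 of 14179 genes (8.36%; 3.69% higher and 4.68% lower). In both genotypes 822 genes were called, 42.7% of the control and 69.3% of the mutant calls, and 821 of them had the same direction. Of the 1926 genes called in control, 94.3% had the same sign in mutants, against 70.7% of all genes. The medians of the stem cell, granulocyte-monocyte and platelet lists were -1.51, 2.68 and -2.55 in mutants, and Slamf1, Mpo and Vwf had log2 fold changes of -3.95, 8.81 and -4.89. DNA replication and mitosis genes had mutant medians of 0.16 and 0.01 and no member called, and Mcm6 and Top2a had 0.20 and 0.15.

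The difference of the step between genotypes was called for 6 genes (0.0423%; 0.0141% with a higher and 0.0282% with a lower step in mutants), and 982 had an unadjusted p under 0.05. DESeq2 called 94 and edgeR with the block 1. The 6 were Gbp4, Ifitm1, Tyms, Alox5, Spats2 and Plac8, of which Spats2 falls outside the naming rule and was picked after its values were seen. Tyms had a log2 fold change of 0.81 in control and -0.10 in mutants (difference -0.90, SE 0.14, edgeR adjusted p = 0.0327), its mean in HSC being 108 CPM in control and 225 CPM in mutant mice. It was the only one of the 77 replication and mitosis genes with a called difference. Plac8 rose by 4.25 and 2.46 (difference -1.78, SE 0.30, edgeR adjusted p = 0.0441), from an HSC mean of 29.3 CPM in control and 123 CPM in mutants. Ifitm1 fell in control and had 0.43 in mutants (difference 1.48, SE 0.21, edgeR adjusted p = 0.0189). Alox5, the first enzyme of leukotriene synthesis, had 1.66 in control and -1.71 in mutants (difference -3.36, SE 0.54, edgeR adjusted p = 0.0327). Gbp4 had no count in mutant MPP3, and Spats2 had none in control MPP3, at least 26.7-fold lower than in HSC.

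**Figure D5:**
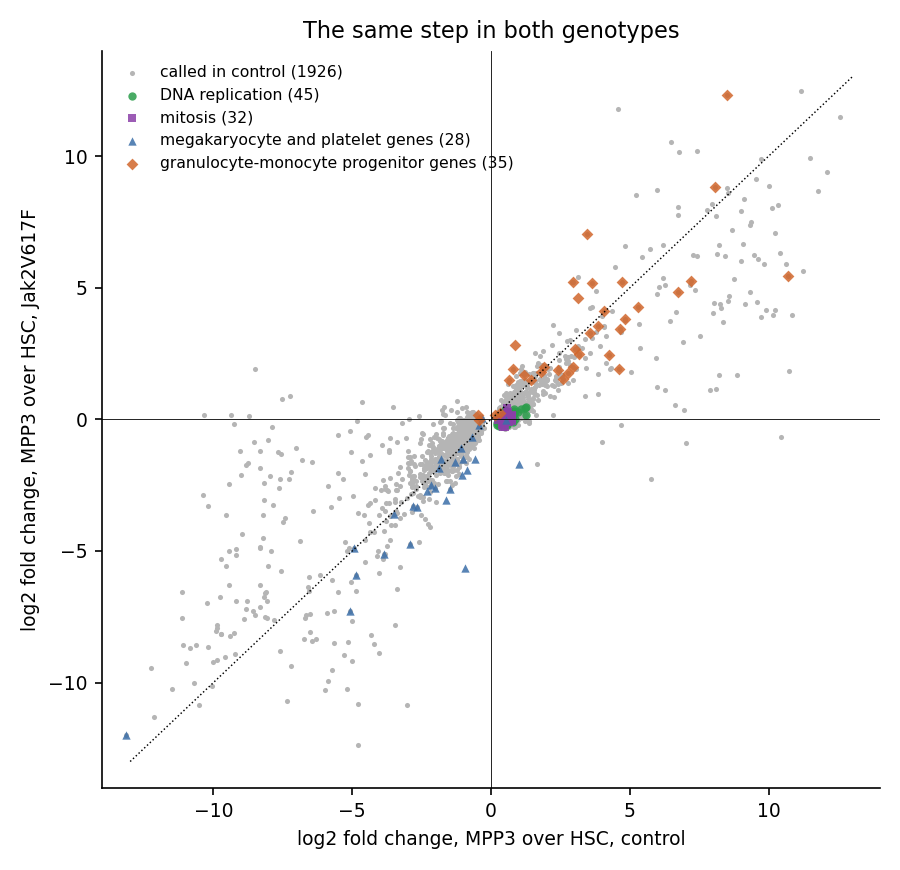
Log2 fold change of MPP3 over HSC in Jak2V617F mice (vertical) against the same in control mice (horizontal) for the 1926 genes called in control (grey) and for the tested members of 4 lists; the dotted line marks equal change. Granulocyte-monocyte genes had medians of 3.13 in control and 2.68 in mutants, and platelet genes -1.71 and -2.55. DNA replication and mitosis genes lie near 0 in mutants, with medians of 0.16 and 0.01.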

How the data were processed

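RNA from sorted cells was amplified with the SMARTer Ultra Low kit and sequenced, per the labels' protocols. The authors deposited Salmon tables of estimated counts per gene, with TPM, scaled for length over all rows, and effective length, per the file headers; cutadapt 4.0, FastQC, HISAT2, Salmon and GRCm38 (mm10) are named in the submitters' processing notes, while none of the sources used here gives the strand setting or transcript set. Of 31716 rows, 1910 carried transcript identifiers (0.738% to 0.796% of counts in the control libraries) and were left out. Counts were rounded, filtered with filterByExpr and scaled by TMM, and edgeR 4.0.16 (limma 3.58.1, R 4.3.3) fitted 4 group means over 16 libraries with robust quasi-likelihood; the step in each genotype and their difference were contrasts with Benjamini-Hochberg adjustment. CPM use the scaled library size. Group means are ± SD.

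Batch numbers in the labels pair the libraries. Deviations from the group means correlated at 0.141, 0.108, 0.118 and 0.082 between control HSC and MPP3 of the same batch, and at -0.091 to 0.013 between different batches. The fit with batch as a block was an alternative, as were DESeq2 1.42.0, limma-voom, RLE size factors, no filter, an effective-length offset, control libraries alone, removal of mitochondrial, rRNA and haemoglobin genes, each library left out, and, chosen after seeing the data, both batch 1 control libraries left out.

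The gene lists and the comparison were chosen with earlier results of these data known. Genes were named by rule: the 10 largest rises and falls without overlap at 5 CPM or more, up to 3 called members of each list in its main direction and 1 in the other, all sort markers, myeloid factors and unfolded protein response regulators, the most abundant genes, Jak2, and the 5 largest differences between genotypes. Not every gene under the rule is described, some are not reported here, and further list members were named after their values were seen. Bounds use a floor of 3 counts per library, and intervals of ratios are exact 95% counting intervals. Promoters are RefSeq windows on GRCm38.p6, matched by symbol for 10396 tested genes. Coordinates are those of the GENCODE annotation on GRCm38.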

Additional observations from a re-analysis of the deposited data

Results flagged for a closer look

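One library stood apart from the other 3 of its group for 41 of 458 groups of 4, over 229 genes of the text, by a test that chance meets in about 1 in 20 groups. That rate does not hold where the others are all 0, since any count there meets the test, even a single one. The 458 also include groups with 0 in all 4 libraries, which could not be tested, so the share among tested groups is higher. HSC replicate 1 stood apart for Car1 at 12.3 CPM (others 27.9 to 28.6), Cebpa at 2.75 CPM (others 0.0250 to 0.390), Dnajb9 at 48.5 CPM (others 21.2 to 23.8), Egr1 at 456 CPM (others 18.2 to 66.5) and Fos at 3266 CPM (others 278 to 473). It did so too for Ier2 at 1513 CPM (others 257 to 422), Junb at 919 CPM (others 160 to 287) and Ppp1r15a at 1361 CPM (others 270 to 362). MPP3 replicate 1 stood apart for Cdkn1a at 45.2 CPM (others 13.4 to 14.6), Clec9a at 0.0579 CPM (others all 0), Dnajb9 at 24.4 CPM (others 14.3 to 15.6), Egr1 at 114 CPM (others 4.88 to 12.5) and Fos at 2294 CPM (others 94.1 to 278). It did so too for Ier2 at 729 CPM (others 134 to 207), Igf2 at 0.232 CPM (others all 0), Junb at 481 CPM (others 59.4 to 116) and Ppp1r15a at 692 CPM (others 70.7 to 138). It did so too for Tgfbr3 at 7.38 CPM (others 18.5 to 20.5). HSC replicate 2 stood apart for Clec9a at 5.98 CPM (others 2.55 to 2.87), Igkc at 0.296 CPM (others all 0), Ldhb at 234 CPM (others 239 to 240) and Trbc2 at 0.431 CPM (others 0 to 0.0250). MPP3 replicate 2 stood apart for Amotl2 at 0.0300 CPM (others all 0), Clu at 1.92 CPM (others 0.809 to 0.984), Cst7 at 42.1 CPM (others 23.3 to 25.3), Ctsg at 97.03 CPM (others 39.8 to 47.3) and Itga2b at 126 CPM (others 187 to 194). It did so too for Trem3 at 12.7 CPM (others 2.65 to 3.87). HSC replicate 3 stood apart for Dntt at 1.20 CPM (others all 0), Mpo at 0 CPM (others 11.3 to 13.5) and Rrm2 at 129 CPM (others 93.5 to 99.03). MPP3 replicate 3 stood apart for Cavin2 at 0.0265 CPM (others all 0), Nbea at 0.504 CPM (others all 0) and Rpl35 at 890 CPM (others 866 to 869). HSC replicate 4 stood apart for Ctsg at 0.600 CPM (others all 0). MPP3 replicate 4 stood apart for Ccnd1 at 31.4 CPM (others 25.7 to 26.7), Chac1 at 0.882 CPM (others all 0), Hoxb5 at 5.71 CPM (others 0.292 to 1.08), Ifit1 at 18.5 CPM (others 8.95 to 10.6) and Plxnc1 at 37.7 CPM (others 28.6 to 29.96). It did so too for Runx1t1 at 0.0245 CPM (others all 0).

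The step differed between genotypes for 6 genes by the test of the difference (mutant minus control, log2). The differences were -0.90 for Tyms, -1.78 for Plac8, -3.36 for Alox5 and 1.48 for Ifitm1. The fitted values of -7.84 for Gbp4 and 9.54 for Spats2 come from a group without counts and measure no size.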

How the results depend on the processing

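Against the 1926 genes called, edgeR called 1846 on control libraries alone, 1913 with RLE size factors, 1772 without a filter, 1867 with the length offset and 1927 without mitochondrial, rRNA and haemoglobin genes. limma-voom called 2184 and DESeq2 2583, which included 1920 of the 1926. With batch as a block 2241 were called, of which 1826 were shared, 100 calls were lost and 415 gained; among genes described above the block changed the calls stated beside them and no other. Leaving out each control library gave 1396 to 1608 calls, 1095 genes being called in every such fit. Without both batch 1 libraries 606 genes were higher in place of 946, and 702 lower in place of 980; fewer samples entered that fit. For the difference between genotypes, called for 6 genes, the block left 1 and DESeq2 gave 94, limma-voom gave 5, and leaving out each control library gave 1 to 4; the cause was not tested. No gene called here and under one of these alternatives had the opposite sign there. Depth limits genes of low count, since a count of 0 allows up to 3 counts in a library.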
